A study of Mus musculus with 6 samples.

Results

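The Sec61 translocon and the TRAP (translocon-associated protein) complex were examined through 9 genes, matched to the deposited table by gene symbol. The genes were Sec61a1, Sec61b, Sec61g, Sec62, Sec63, Ssr1, Ssr2, Ssr3 and Ssr4, a list drawn up with earlier results of these data known. All 9 were among the 18437 genes of the table, and all 9 were among the 16042 genes that passed the filter on low values. The RNA came from pancreatic islets (the clusters of endocrine cells that release insulin and glucagon) of male mice aged 30 weeks. The design had 3 libraries of genotype Sec16b+/+ (wild type) and 3 of genotype Sec16b-/- (knockout), with no treatment named. Sec16b encodes a scaffold protein of the sites where cargo leaves the endoplasmic reticulum (ER). The sources used here give neither the strain, nor how the allele was made, nor whether each library stands for 1 animal, and the spread behind the p-values may therefore be partly technical.

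Proteins bound for secretion, insulin among them, enter the ER through the Sec61 channel while they are still being made. The channel has a pore-forming alpha subunit and the small beta and gamma subunits, encoded by Sec61a1, Sec61b and Sec61g. Sec62 and Sec63 are membrane proteins that assist the channel with precursors that are short or enter after synthesis, and Sec63 recruits the ER chaperone BiP through its J domain. TRAP sits beside the channel, its alpha, beta, gamma and delta subunits are encoded by Ssr1, Ssr2, Ssr3 and Ssr4, and it helps precursors with weakly gating signal sequences, proinsulin among them, to enter.

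Many ER chaperone genes carry an ER stress response element (ERSE) in their promoters, a site bound by the unfolded protein response factor ATF6 together with NF-Y. RefSeq promoter windows of GRCm38.p6, 250 bases before to 50 bases after the transcription start, were at hand for 7 of the 9 genes, and Sec61a1 and Ssr2 had none. The last 120 bases before the start are shown for Ssr1, Ssr4 and Sec61g, since the ratios of Ssr4 and of Sec61g to Ssr1 were among those that differed most between the genotypes. Capitals mark each CCAAT or CCACG, the pieces of an ERSE, on either strand.
Ssr1, chr13:37994209-37994328, minus strand: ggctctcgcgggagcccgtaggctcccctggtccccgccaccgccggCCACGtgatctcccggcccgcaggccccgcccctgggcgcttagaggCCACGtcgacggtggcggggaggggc
Ssr4, chrX:73786903-73787022, plus strand: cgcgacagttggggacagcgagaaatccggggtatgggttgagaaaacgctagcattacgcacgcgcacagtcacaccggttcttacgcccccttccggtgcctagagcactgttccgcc
Sec61g, chr11:16508485-16508604, minus strand: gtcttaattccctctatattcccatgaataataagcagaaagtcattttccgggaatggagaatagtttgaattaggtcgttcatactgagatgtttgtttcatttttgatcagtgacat
Ssr1 had 2 CCACG pieces and no CCAAT within its 250 upstream bases, Ssr4 had 0 of either, and Sec61g had 2 CCAAT pieces, both upstream of the stretch shown. Among the genes not shown, Sec63 had 1 CCAAT and 3 CCACG pieces and Ssr3 had 2 and 1, so these genes held both pieces. Sec61b and Sec62 had 0 of either.

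Motifs were searched on both strands of whole windows: ERSE (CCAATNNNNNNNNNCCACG), ERSE-II (ATTGGNCCACG) and the core of the unfolded protein response element (UPRE, TGACGTG). ERSE and ERSE-II share the piece CCACG, so 1 stretch can count for both. Of the 7 windows, 0 held the letters of any of these motifs. Of all 32851 windows, 39 (0.119%) held ERSE, 12 (0.0365%) ERSE-II and 661 (2.01%) the UPRE core. Among 14 ER chaperone genes listed for comparison, 12 had a window and 6 of these held ERSE. Hspa5, which encodes BiP, held ERSE too, and its match and 3 of the chaperone matches follow for contrast, with the ERSE in capitals and 10 bases on each side.
Hspa5, chr2:34772015-34772053, plus strand: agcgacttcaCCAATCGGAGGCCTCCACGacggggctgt
Calr, chr8:84847065-84847103, minus strand: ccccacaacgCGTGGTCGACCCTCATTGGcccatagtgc
Creld2, chr15:88819510-88819548, plus strand: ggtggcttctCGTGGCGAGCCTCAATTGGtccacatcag
Pdia6, chr12:17266481-17266519, plus strand: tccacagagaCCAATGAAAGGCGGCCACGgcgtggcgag
In Calr and Creld2 the match lies on the opposite strand, so the shown strand begins it with CGTGG and ends it with ATTGG. A match is a string of letters in a window, and the data do not show whether a factor bound there.

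The libraries held between 22071895 and 26806787 reads assigned to genes, and each of the 9 genes had at least 660 reads in every library. Sec16b itself lay between 773 and 1786 over wild type and between 433 and 750 over knockout libraries (log2 fold change −1.22, SE 0.35, limma's adjusted p 0.993), in normalised read counts (reads divided by a size factor per library), the unit of all values given here unless another is named. Which exons the allele removes is not known here, so a gene total checks the labels only in part. Marker genes of other cell types differed widely between libraries. The summed level of the 20 acinar genes (exocrine pancreas), all present, ran from 243482 to 1184813 over wild type and from 155110 to 4196729 over knockout libraries. Beta cell markers, Ins1 and Ins2 among them, were present in all 6 libraries, the sum of the 10 genes listed running from 2601539 to 3558069 in the former and from 2383081 to 3258244 in the latter. Of these 10 beta cell genes 9 were on the negative side (median log2 fold change −0.13), while 6 of 6 alpha cell genes (median 0.36) and 4 of 5 delta and PP cell genes (median 0.27) were on the positive side. The summed delta and PP level did not overlap, with 39675 to 45065 over wild type and 45703 to 67473 over knockout libraries. The part of these endocrine markers in the results was not tested. Of 8 B and plasma cell genes 7 were in the table, and their sum ran from 267 to 24125 over wild type and from 7556 to 153632 over knockout libraries. All 7 were on the positive side (median 2.95), as were 19 of 20 acinar genes (median 0.80) and 5 of 6 endothelial genes (median 0.31). Of 6 stellate and fibroblast genes, 4 were on the negative side (median −0.23), and of 6 macrophage genes 3 were. The part of these cell types in the results was not tested beyond the acinar covariate given below.

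None of the 9 genes passed the test between knockout and wild type. By limma, 0 of 9 genes had an adjusted p under 0.05, as did 0% of all genes tested, and 0 of 9 had an unadjusted p under 0.05, against 3.08% of all genes. Run on the recovered reads, edgeR's quasi-likelihood test called 0 of 9 (0% of all genes), with 0 of 9 at an unadjusted p under 0.05 (3.17% of all genes). DESeq2 called 0 of 9 (0.081% of all genes), with 0 of 9 at an unadjusted p under 0.05 (3.6% of all genes). The log2 fold change (knockout minus wild type, on the log2(value + 1) scale) was negative for 7 genes and positive for 2, Sec61g and Ssr4, and 50.6% of all genes tested were on the negative side. Its median was −0.10 over the 9 genes and −0.00 over all genes tested. All 9 genes had a mean above 500, and genes at such levels leaned to the negative side. Of genes with a mean of at least 500, 38.5% were on the positive side with transcripts of 1 to 2 kb. This share was 36.9% with 2 to 4 kb and 37.2% with 4 kb or more, and each of these 3 medians was −0.04. With transcripts under 1 kb, 56.9% were on the positive side, with a median of 0.04. The 95% intervals allowed a change between −0.48 (the lower bound of Ssr1) and 0.53 (the upper bound of Sec61g), so none of the 9 intervals reached a 2-fold change.

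**Figure D1:**
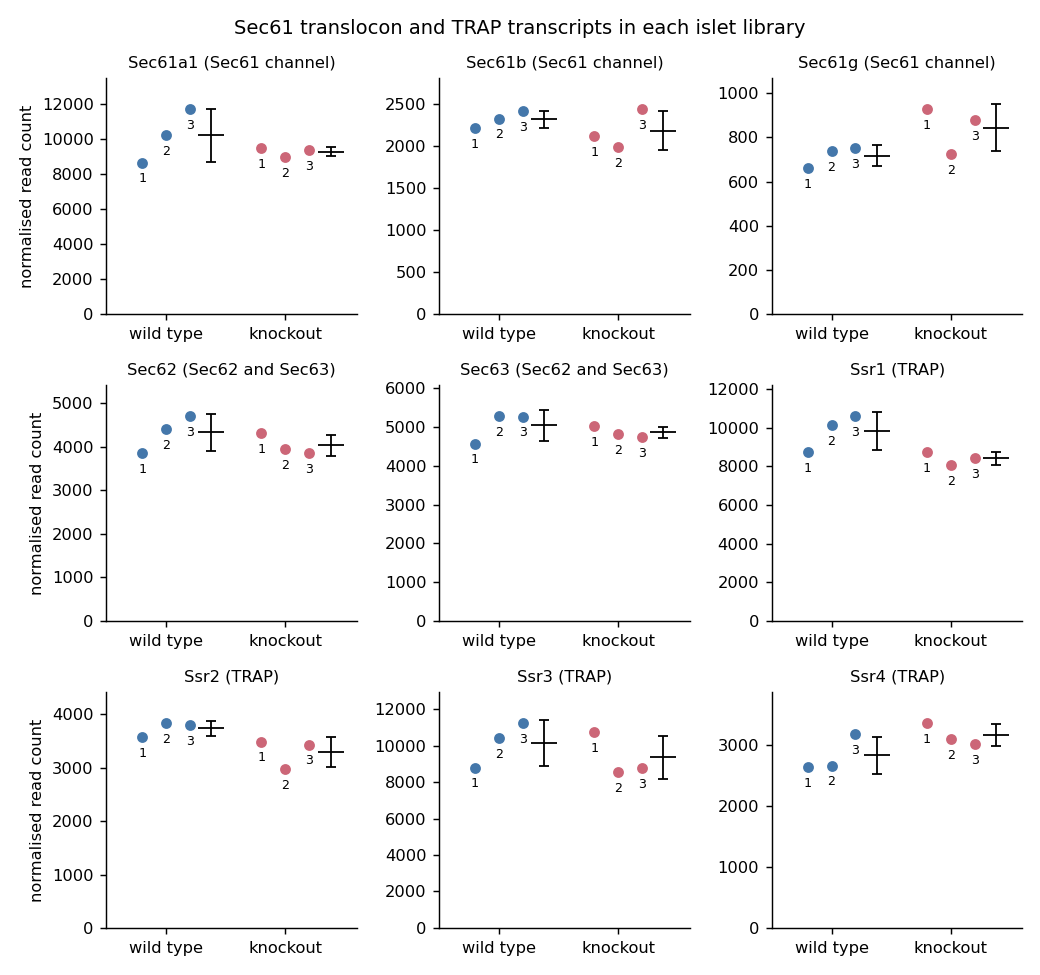
Normalised read count (vertical axis, from 0) of each of the 9 genes in each library. Blue points are wild type and red points knockout, small numbers give the replicate, and bars give the mean and SD of 3 libraries. Ssr1 and Ssr2 are the genes whose knockout points all lie below the wild type points.

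Sec61a1 encodes the pore of the channel. Wild type libraries held 8676, 10269 and 11724 and knockout libraries 9518, 8988 and 9397, always in the order of replicates 1, 2 and 3. The groups overlapped, since the 3 knockout libraries lay between wild type replicates 1 and 2. From a wild type mean of 10223 ± 1525 (SD, n = 3), the knockout mean of 9301 ± 277 (SD, n = 3) gave a log2 fold change of −0.13 (SE 0.13, 95% interval −0.44 to 0.18). Its paralog Sec61a2, an alternative alpha subunit found at lower levels, lay between 262 and 463 over wild type and between 324 and 471 in knockout libraries, with a log2 fold change of 0.19 (SE 0.25).

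Sec61b encodes the beta subunit, a small tail-anchored protein. It stood at 2213, 2331 and 2417 in wild type libraries and 2124, 1995 and 2442 in knockout libraries. Knockout replicates 1 and 2 were below every wild type library, and knockout replicate 3 was the highest of all 6. The log2 fold change was −0.09 (SE 0.10, 95% interval −0.33 to 0.15).

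Sec61g, the gene of the gamma subunit that clamps the pore, had the largest positive difference of the 9 genes. Wild type libraries held 662, 738 and 750, and knockout libraries 928, 724 and 880. Knockout replicates 1 and 3 exceeded the highest wild type value, but knockout replicate 2 lay inside the wild type range. The log2 fold change was 0.23 (SE 0.13, 95% interval −0.07 to 0.53), and limma's adjusted p was 0.993, as for the other 8 genes. Transcripts of 9 other genes, most of them processed pseudogenes, matched Sec61g over at least 200 bases at 90% identity or more, so its reads could have been shared. The closest, Gm10177 at 99.1% identity, was in the table between 130 and 178 per library, with a log2 fold change of 0.03 (SE 0.20). Sec61b had 3 such matches, of which Gm10320 was in the table, at no more than 13.6 in a library.

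The helper genes Sec62 and Sec63 overlapped between genotypes. Sec62 was at 3858, 4407 and 4699 in wild type libraries and 4306, 3939 and 3848 in knockout libraries. Its groups overlapped over most of their range, with a log2 fold change of −0.10 (SE 0.10, 95% interval −0.35 to 0.15). Sec63 was at 4575, 5285 and 5271 in wild type libraries and 5017, 4821 and 4747 in knockout libraries. All 3 knockout values of Sec63 fell between wild type replicate 1 and the other two, and the log2 fold change was −0.05 (SE 0.09, 95% interval −0.27 to 0.17). On the opposite strand, 4933429H19Rik overlaps Sec62 and Gm26464 overlaps Sec63, and neither exceeded 6.13 in any library.

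TRAP held the 2 genes whose genotypes did not overlap. Ssr1, the alpha subunit, was at 8739, 10155 and 10607 in wild type libraries and 8731, 8062 and 8437 in knockout libraries. Every knockout library was below every wild type library, but knockout replicate 1 lay only just under wild type replicate 1 (8731 against 8739). The wild type mean was 9834 ± 975 (SD, n = 3) and the knockout mean 8410 ± 336 (SD, n = 3), a log2 fold change of −0.22 (SE 0.11, 95% interval −0.48 to 0.04). Ssr2, the beta subunit, was at 3570, 3840 and 3794 in wild type libraries and 3490, 2971 and 3432 in knockout libraries. Here too the knockout libraries lay below, knockout replicate 2 farthest. Its means were 3735 ± 145 (SD, n = 3) and 3298 ± 284 (SD, n = 3), a log2 fold change of −0.18 (SE 0.10, 95% interval −0.41 to 0.04).

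For both genes limma gave an adjusted p of 0.993, and the two-sided exact permutation test of each gene alone gave p = 0.1, the smallest that 3 libraries against 3 can give. Of the 9 genes, 2 had knockout values all below the wild type values and 0 had them all above, against 5.22% and 3.85% of all genes tested (9.08% in either direction). With TMM scaling factors 1 gene was left. Wild type replicate 1 was the lowest wild type library for all 9 genes, and without it Sec61a1, Sec62, Sec63, Ssr1 and Ssr2, 5 genes, were separated on the lower side, against 11.5% of all genes tested in the same 5 libraries. Ssr2 shares a stretch of 366 bases at 98.6% identity with Rtraf, a gene at 896 to 1201 per library, so some reads of Ssr2 are uncertain.

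Ssr3, the gamma subunit, was at 8795, 10399 and 11249 in wild type libraries and 10729, 8543 and 8782 in knockout libraries. Knockout replicate 1 was the second highest of the 6 and the other knockout libraries were the lowest, which gave a log2 fold change of −0.12 (SE 0.14, 95% interval −0.45 to 0.22). Ssr4, the delta subunit, whose gene lies on the X chromosome, was at 2638, 2655 and 3170 in wild type libraries and 3356, 3096 and 3007 in knockout libraries. Knockout replicate 1 was highest, and wild type replicate 3 lay above the other knockout libraries. Its log2 fold change was 0.16 (SE 0.10, 95% interval −0.08 to 0.41).

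**Figure D2:**
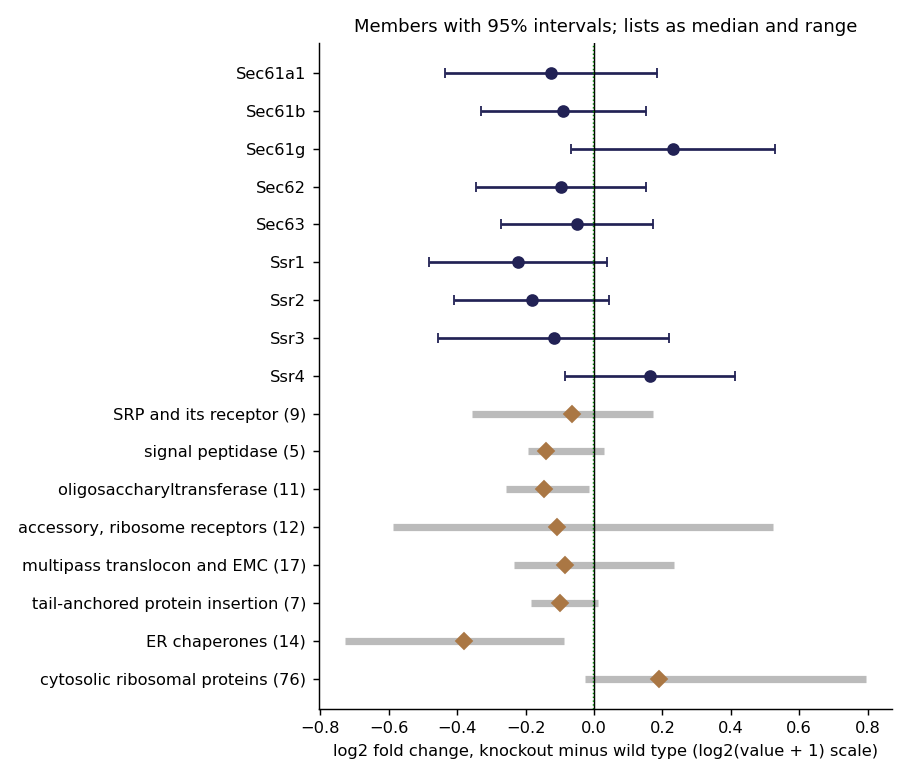
Log2 fold change, knockout minus wild type. Points with bars are the 9 genes with 95% intervals from limma, diamonds are medians of gene lists with the number of genes in brackets, grey bars run from the lowest to the highest gene of a list, and the dotted line is the median of all genes tested. All 9 intervals include 0, and the ER chaperone median (−0.38) lies below each of the 9 points.

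Ratios between 2 of the genes within a library do not depend on how libraries were scaled, and they separated the genotypes more often than single levels did. Of the 36 pairs, 15 (41.7%) had ratios that did not overlap between genotypes, against 8.05% of all 128664861 pairs of tested genes and 7.81% of pairs with a mean of at least 500. Of the 15 pairs, 13 held Sec61g or Ssr4 on the side that was higher in knockout libraries, and the other two were Sec63 over Ssr1 and Sec62 over Ssr1. Pairs that share a gene are not independent, and the ratios were examined after the single values were seen.

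Ssr4 over Ssr1, the delta over the alpha subunit of TRAP, was 0.302, 0.261 and 0.299 in wild type libraries and 0.384, 0.384 and 0.356 in knockout libraries. The mean ratio was 0.287 ± 0.022 (SD, n = 3) and 0.375 ± 0.016 (SD, n = 3). By the means of the log2 ratios, which give every fold of a ratio here, it was 1.31-fold higher in knockout libraries. Sec61g over Ssr1 was 0.0757, 0.0727 and 0.0707 in wild type libraries and 0.106, 0.0898 and 0.104 in knockout libraries, 1.37-fold higher, the largest shift of the 36. Within the channel itself, Sec61g over Sec61a1 was 0.0763, 0.0719 and 0.0640 in wild type libraries and 0.0975, 0.0806 and 0.0937 in knockout libraries, 1.28-fold higher.

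The exact permutation test gave p = 0.1 for each separated pair, the smallest value the design allows, and p = 0.24 after Benjamini-Hochberg adjustment over the 36 pairs. The ratio of the pair that were both on the positive side, Sec61g over Ssr4, was 0.251, 0.278 and 0.237 in wild type libraries and 0.276, 0.234 and 0.293 in knockout libraries, overlapping throughout. Ratios among Sec61a1, Sec61b, Sec62 and Ssr3 overlapped between genotypes in every pair, with shifts between 1.01-fold and 1.03-fold. These ratios are of read counts, not of molecules, since the genes differ in length.

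**Figure D3:**
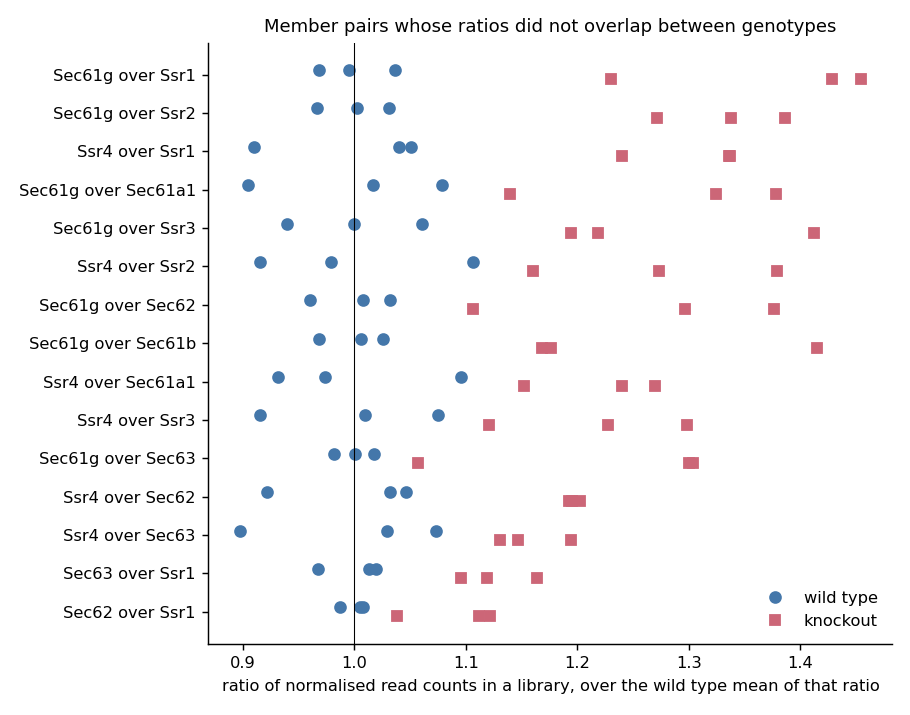
The 15 pairs of genes whose ratio did not overlap between genotypes. The horizontal axis gives the ratio in a library divided by the wild type mean of that ratio, with blue circles for wild type and red squares for knockout libraries. Sec61g or Ssr4 is the upper gene of 13 of the pairs.

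Ssr4 has a short transcript, Sec61g has short as well as longer ones, and values of other short transcripts stand beside theirs here. The 76 cytosolic ribosomal protein genes, which encode proteins of the ribosomes that dock on the channel, are mostly short. Of them, 75 were on the positive side (median log2 fold change 0.19), while 50.6% of all genes tested were on the negative side. Limma, edgeR and DESeq2 each called 0 of the 76. At an unadjusted p under 0.05 were 3 by limma, all on the higher side, where 276 of the 16042 genes tested lay. By edgeR there were 4 and by DESeq2 5, against 3.17% and 3.6% of all genes in either direction. Knockout values lay all above wild type values for 5 of the 76, against 3.85% of all genes tested. The median level of the 76 genes, centred on each gene's mean over the libraries, was 0.16, −0.08 and −0.36 in wild type libraries and 0.41, 0.12 and −0.25 in knockout libraries. Knockout replicate 1 was highest for them and for Sec61g alike, but their lowest library was wild type replicate 3 and that of Sec61g was wild type replicate 1. Over 260 genes with a transcript under 1 kb and a mean of at least 500, the median log2 fold change was 0.04, with 56.9% on the positive side. Over 1100 genes of 1 to 2 kb it was −0.04, with 38.5% on the positive side. These classes use the longest principal transcript, by which Ssr4 (765 bases) is in the first and Sec61g (1862 bases) in the second. Sec61b, with a principal transcript of 564 bases, was on the negative side. The part of transcript length in the ratios was not tested.

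Compared per length, the 9 genes were not at one level. The protein subunits of the channel and of TRAP are present in equal numbers in each complex, which RNA read counts per kb do not measure. With the longest principal transcript of GENCODE M21 as length, wild type levels per kb ran from 4114 ± 181 (SD, n = 3) for Sec61b to 385 ± 26 (SD, n = 3) for Sec61g. Ssr4 (3688 ± 395), Ssr3 (3432 ± 421), Sec61a1 (3223 ± 481) and Ssr2 (3141 ± 122) followed Sec61b, and the ranges of neighbours in this order overlapped over the 6 libraries. A gap then separated Ssr2 from Sec62 (1089 ± 108), Ssr1 (1054 ± 104) and Sec63 (836 ± 67), whose neighbouring ranges overlapped as well.

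The order rests on which length is used. With the shortest principal transcript, 450 bases for Sec61g in place of 1862, Sec61g had 1592 ± 106 per kb and ranked 6th of 9. With all annotated exons of a gene counted, Ssr4 had 911 ± 98 per kb, ranked 7th, and Ssr3 ranked 1st. Sec62 and Sec63 lay below Sec61a1, Sec61b, Ssr2 and Ssr3 with all 3 lengths. Which transcripts the islets used cannot be read from gene counts.

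**Figure D4:**
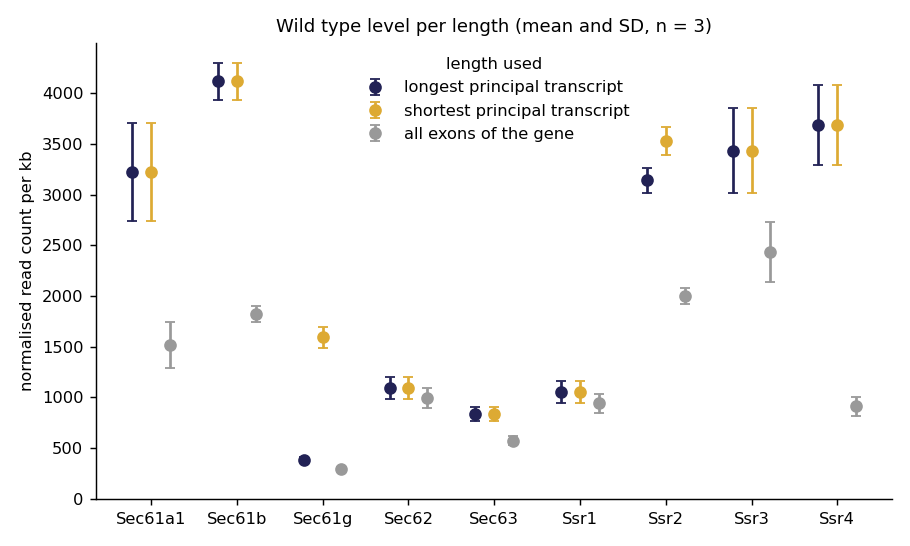
Wild type level of each gene per kb of length (vertical axis, from 0), as the mean and SD of 3 libraries, with 3 choices of length. Sec61g moves from 385 to 1592 between the longest and the shortest principal transcript.

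The genes that feed the channel and process what comes through it were described from lists of the pathway, of which 61 of 63 genes were tested. Over the 6 lists, 45 genes were on the negative and 16 on the positive side, with a median of −0.10, the same as for the 9 genes to 2 decimals. Limma called 0 of the 61, with 3 at an unadjusted p under 0.05, all lower, against 1.36% of all genes tested on that side. EdgeR and DESeq2 called 0 as well, with 3 each at an unadjusted p under 0.05, against 3.17% and 3.6% of all genes in either direction. Knockout values lay all below wild type values for 12 of the 61, and all above for 1, against 5.22% and 3.85% of all genes tested.

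The signal recognition particle (SRP) and its receptor bring ribosomes to the channel. Of their 9 genes, 6 were on the negative side (median −0.06), and no genotype was separated from the other for any of them. Srp54a had the smallest p on the lower side, at 222 ± 34 (SD, n = 3) against 176 ± 45 (SD, n = 3), though near-identical copies of Srp54 may have shared its reads, and Srp19 on the higher side had a log2 fold change of 0.17 (SE 0.13). Signal peptidase, which cuts the signal sequence off, had 4 of 5 genes on the negative side (median −0.14). Its gene Spcs3 was at 7606, 8164 and 8766 in wild type libraries and 6840, 7411 and 7172 in knockout libraries, without overlap (−0.19, SE 0.10), and Sec11c, a catalytic subunit, had 0.03 (SE 0.16).

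Oligosaccharyltransferase, the enzyme that attaches N-linked sugars beside the channel, had all 11 tested genes on the negative side, with a median of −0.15. Stt3b, one of its catalytic subunits, was at 4319, 4755 and 4527 in wild type libraries and 3877, 4043 and 3478 in knockout libraries. Its log2 fold change was −0.26 (SE 0.09, 95% interval −0.48 to −0.03), and limma's adjusted p was 0.993. It was 1 of 4 of the 11 genes with knockout values all below wild type values, against 5.22% of all genes tested.

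Among 12 accessory proteins and ribosome receptors of the rough ER, 8 were on the negative side (median −0.11). Ckap4, a sheet-forming protein of the rough ER, was at 1945, 2278 and 2419 in wild type libraries and 1643, 1824 and 1862 in knockout libraries, without overlap (−0.31, SE 0.11). Tram2, a translocation factor at a low level, was at 216, 199 and 178 in wild type libraries and 447, 280 and 183 in knockout libraries, with overlap (0.52, SE 0.32). Hspa5, whose protein BiP binds Sec63 and pulls chains through the channel, lay between 79444 and 137439 over wild type and between 74410 and 107512 in knockout libraries (−0.29, SE 0.33).

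Of 17 genes of the multipass translocon and the ER membrane complex, which insert membrane proteins, 10 were on the negative side (median −0.09). Ccdc47 was the gene with the smallest p, at 3823, 3990 and 3936 in wild type libraries and 3277, 3208 and 3514 in knockout libraries. The knockout libraries all lay below, with a log2 fold change of −0.23 (SE 0.08, 95% interval −0.42 to −0.04). Tmem147, of the same translocon, had 0.22 (SE 0.11). The 7 genes of tail-anchored protein insertion, a route that does not use Sec61, had 6 on the negative side (median −0.10). Get3, their targeting factor, had −0.18 (SE 0.10), and Caml, part of the receptor, was at 646 ± 78 and 648 ± 1.6 (SD, n = 3 each).

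ER chaperones lay farther from 0. All 14 had negative log2 fold changes, with a median of −0.38, and 9 had an unadjusted p under 0.05 in limma, against 1.36% of all genes tested on the lower side. Limma and edgeR called 0 of them and DESeq2 3, against 0.081% of all genes. The difference between the chaperones and the 9 translocon genes was not tested, and the chaperone list was known from earlier results of these data to be lower. Xbp1, a transcription factor of the unfolded protein response, lay between 11769 and 13074 over wild type and between 11837 and 13832 in knockout libraries (0.02, SE 0.11). Over Xbp1 and the sensor genes Ern1, Eif2ak3 and Atf6, the median log2 fold change was 0.02. Gene totals show neither how Xbp1 was spliced nor whether a sensor was active.

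The genotypes overlapped in the mean level of the 9 genes. The mean of the centred log2 values was −0.11, 0.05 and 0.14 in wild type libraries and 0.05, −0.11 and −0.02 in knockout libraries. Wild type replicate 1 and knockout replicate 2 were low together, and wild type replicate 3 was highest. The acinar genes took 5.24%, 1.08% and 3.20% of reads in wild type and 15.5%, 7.11% and 0.705% in knockout libraries. Acinar and plasma cells hold much rough ER, their part in the levels of the 9 genes was not tested beyond 1 covariate, and in bulk samples fewer cells of a type and less RNA per cell cannot be told apart. With the acinar level as a covariate, the median over the 9 genes was −0.11 and each gene kept its direction.

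Among 4792 other genes with a mean of at least 1000, those whose centred profile over the 6 libraries came nearest to the mean of the 9 genes were Phf3, Kat6b, Herpud2, Psmd6 and Tut4. Their root mean square differences from that mean lay between 0.028 and 0.035 on the log2 scale, while the mean profile itself departed from a flat line by 0.091. Of the 9 genes, Sec62 (0.045) and Sec63 (0.046) were nearest to their own mean, and Ssr4 (0.13) and Sec61g (0.16) farthest. Of the 4792 other genes, 15 came nearer to that mean than Sec62 did, and 2524 came nearer than Sec61g did. Phf3, for example, was at 3114, 3322 and 3670 in wild type libraries and 3352, 2998 and 3312 in knockout libraries. It was low in wild type replicate 1 and knockout replicate 2 like the mean of the 9 genes, the likeness by which it was chosen. Single members departed from this, Ssr4 not being low in knockout replicate 2.

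**Figure D5:**
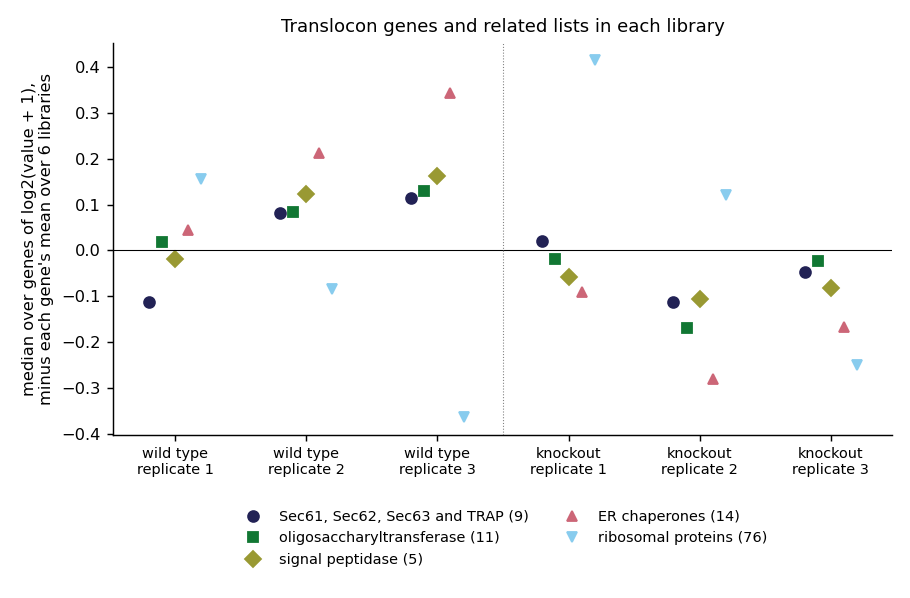
Median over the genes of a list of the log2(value + 1) level, minus each gene's mean over the 6 libraries (vertical axis), in each library, with the number of genes in brackets. The 9 translocon genes stay between −0.11 and 0.11, while the ER chaperones run from −0.28 to 0.34 and the ribosomal proteins from −0.36 to 0.41.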

How the data were processed

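The authors sequenced RNA of pancreatic islets in 3 wild type and 3 knockout libraries, grouped here by their titles. The submitters' processing notes name HISAT2, an aligner, and the sources used here give no counting tool, strand setting or genome build. The deposited signal values behave as gene counts over a size factor: in each library 100% were whole multiples of 1 step, within 0.01 reads. The filter asked for values of 10 or more in 3 or more libraries and removed 2395 genes. Log2(value + 1) was fitted with limma 3.58.1 in R 4.3.3 (mean-variance trend, two-sided, Benjamini-Hochberg over all 16042 genes, threshold 0.05), and the median SE was 0.199 (0.105 for the 9 genes). The recovered reads were tested with edgeR 4.0.16 (quasi-likelihood) and DESeq2 1.42.0. The members and lists were chosen with earlier results of these data known. Named beside the members were Sec16b, Sec61a2, Hspa5, Xbp1, the gene of smallest p per pathway list and direction, and the 5 nearest profiles. Pseudogene copies were named after their values were seen. Transcript lengths were found for 86.0% of tested genes, and promoter sequences are RefSeq's (GRCm38.p6). Scripts were tested on simulated data. Alternatives covered pseudocount, filter, scaling, trend, tool, a replicate block, the acinar level and each library left out.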

Additional observations from a re-analysis of the deposited data

How the results depend on the processing

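Each of the 9 genes kept its direction in all 17 alternatives, and none was called in any of them; the lowest adjusted p of any gene was 0.735 (Ssr2). DESeq2 called 13 genes over the whole table where limma called 0, and none of the 9 was among them. With TMM scaling, 1 of the 9 genes was separated on the lower side in place of 2. With single libraries left out, that count ran from 2 to 5, and groups of 2 separate more easily. The 5, without wild type replicate 1, stood against 11.5% of all genes tested in the same libraries. For TMM scaling and the other left-out libraries no share over all genes is at hand, so those counts cannot be read as a result. The count at an unadjusted p under 0.05 on the lower side ran from 0 to 1, Ssr1 being the 1, without wild type replicate 1. On the higher side, Sec61g had an unadjusted p of 0.0315 without knockout replicate 2 and Ssr4 of 0.0425 without wild type replicate 3, with limma's adjusted p at 0.9996 and 0.9997. The median over the 9 genes ran from −0.18 without wild type replicate 1 to −0.03 without wild type replicate 3. It was −0.17 with equal library totals, which moved the median of all genes to −0.07. The number of separated ratios ran from 15 to 20 of 36 with single libraries left out, an alternative chosen after seeing the data, and groups of 2 separate more easily by construction. Libraries with the same replicate number correlated at 0.43, 0.0037 and 0.37 in their deviations from the group means. For replicates 1 and 3 this was the highest correlation of the wild type library with any knockout library. Wild type replicate 2 correlated most with knockout replicate 3, at 0.20. Whether the numbers pair the libraries was not settled, and the main fit did not pair them. The replicate block called 0 genes over the table and 0 of the 9, with the median unchanged at −0.10. Each of the 9 genes had at least 660 reads in every library.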
